A study of Ovis aries with 24 samples.

Results

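The rumen epithelium was compared with the reticulum epithelium of lambs at d10, with 3 RNA sequencing libraries of each chamber. These are 6 of the 24 libraries of the series, which covers the rumen, reticulum, omasum and abomasum at d5 and d10. They were taken by chamber and age from the sample labels, and no measured value entered the choice. The labels give no treatment for either group, and say that the epithelium was separated from the muscle layer after slaughter, for the rumen from its ventral sac. The study's methods describe the d5 animals, together with older ones, as male Hu lambs raised with their mothers on ewe's milk. By these methods starter pellets were offered from d10 of age, which is later than the d5 lambs were sampled. The breed, sex and feeding of the d10 lambs are not stated there, and the labels do not say whether libraries with the same number came from the same lamb.

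Rumen and reticulum are the first chambers of the ruminant stomach and lie side by side with a wide opening between them. Both are lined by a stratified squamous epithelium, which forms papillae in the rumen and a honeycomb of crests in the reticulum. The rumen is the main site of fermentation and takes up volatile fatty acids through its papillae, while the reticulum sorts and moves digesta and carries the groove that leads milk past the rumen in young animals. The omasum has a squamous lining as well, whereas the abomasum is the glandular stomach. The question set by the comparison is which genes differ between these neighbouring linings at an age when the rumen is still small.

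The table lists genes by Ensembl sheep identifier only. Of 27054 identifiers, 0 could be paired with a symbol, so that markers of epithelium, muscle, connective tissue, blood and glands were not read, and what the called genes encode is not known from these files. The tissue labels were therefore not checked against marker genes. In such bulk tissue, fewer cells of a type and less RNA per cell cannot be told apart.

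Total counts ran from 13508243 to 18464144 per library, where 1 count is 0.0542 to 0.074 CPM (counts scaled by the library total, as used throughout). The 3 rumen libraries were alike, with a Pearson r of 0.969 to 0.976 across the 14765 genes tested (log2(CPM + 1), genes not being independent replicates). Reticulum libraries 1 and 2 had an r of 0.962. Reticulum library 3 stood apart, with r of 0.934 and 0.937 with the other reticulum libraries and 0.941 to 0.952 with the 3 rumen libraries. Its scaling factor from edgeR's trimmed-mean method (TMM) was the lowest too, at 0.844, against 0.968 to 1.08 in the other 5. Counts of called and of non-overlapping genes and the genes named are given with and without it.

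A partial check of that library was possible with genes called in other libraries. At d5, 97 genes were called higher in the reticulum, of which 93 could be tested at d10. The median level of these 93 genes was 15.9 CPM in reticulum library 3 of d10, 29.1 and 42.4 CPM in libraries 1 and 2, and 3.74 to 4.6 CPM in the 3 rumen libraries. Library 3 exceeded all 3 rumen libraries for 83 of the 93 genes, against 19.3% of all genes tested. The filter on low counts that left 93 genes used library 3 as well. For 9 of the 93 genes, with at most 3 counts in every rumen library, passing it required a higher value in library 3. Their outcome was thus fixed in advance. It was the lowest of the reticulum libraries for 58 of them, against 52.1% of all genes. Its values thus lay above those of the rumen for most of these genes.

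At d10, no gene passed the threshold between rumen and reticulum when the 6 libraries were treated as independent (edgeR quasi-likelihood test, adjusted p under 0.05, 0 of 14765 genes or 0%). The lowest adjusted p was 0.0556, and 2809 genes (19%) had an unadjusted p under 0.05, 1290 higher in the rumen and 1519 higher in the reticulum. limma-voom gave 0 genes too, and DESeq2 gave 1136. With the replicate number as a block, which compares the chambers within each numbered pair, 113 genes (0.765%) were called. Of these, 98 (0.664% of those tested) were higher in the reticulum and 15 (0.102%) were higher in the rumen. On simulated data the share of false calls in this fit was well above its nominal rate, so that more of these calls may be false than the threshold implies. Rumen and reticulum libraries of the same number varied together at both ages, so that the block was taken to fit the samples, although the labels do not state the pairing. When only genes with at least 10 counts in every library were tested, 0 genes were called with the block (edgeR, lowest adjusted p = 0.0614, 2888 genes at an unadjusted p under 0.05). All 15 of the genes higher in the rumen and 47 of the 98 higher in the reticulum passed that filter and lost their call, so that the 113 calls depend on the filter as well as on the block.

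With no block, the number of calls rested on reticulum library 3. Without reticulum library 3, 1162 of 15357 genes (7.57%) were called by edgeR, 118 higher in the rumen and 1044 higher in the reticulum. Of the 113 genes called with the block, 98 were among these 1162 genes. The libraries of this fit also gave the 113 calls, so that the overlap is no separate support. Leaving out reticulum library 2 gave 10 genes, all higher in the reticulum, and leaving out any of the other 4 libraries gave 0. With the block, a library whose partner is left out no longer bears on the chamber difference, so that the omissions amount to leaving out each pair. The counts were 59 and 38 without the rumen or the reticulum library of pair 1, 206 and 159 for pair 2, and 2310 and 2294 for pair 3. They do not tell the 2 libraries of a pair apart, and these fits leave 1 residual degree of freedom. For each of the 3 pairs more genes were higher in the reticulum than in the rumen.

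**Figure D1:**
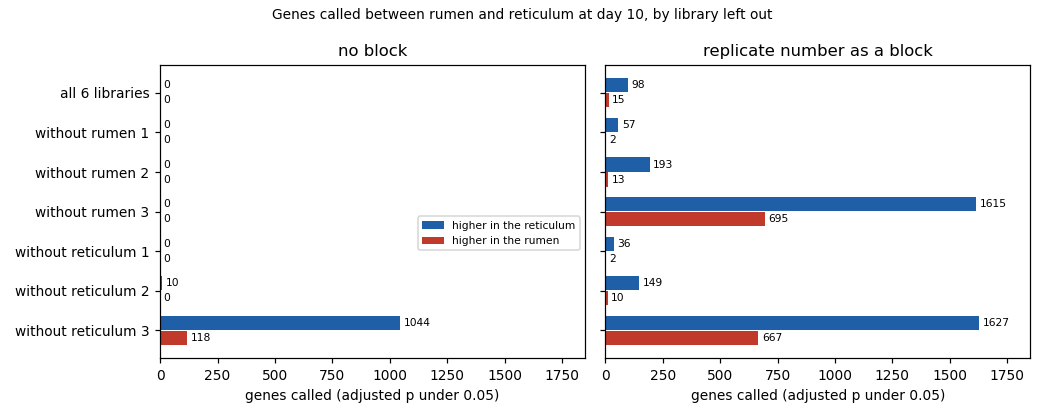
Genes called between rumen and reticulum at d10 (horizontal axis, adjusted p under 0.05) with all 6 libraries and with each library left out (vertical axis), without a block on the left and with the replicate number as a block on the right. Blue bars count genes higher in the reticulum and red bars genes higher in the rumen; without a block the count was 0 with all libraries and 1044 and 118 without reticulum library 3.

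Reticulum libraries differed more among themselves than rumen libraries. The median SD of log2(CPM + 1) after TMM scaling was 0.321 over the 3 reticulum libraries and 0.195 over the 3 rumen libraries of d10. With reticulum libraries 1 and 2 alone it was 0.21. An SD over 2 libraries tends to be smaller than one over 3, so that this value cannot be set directly against 0.195 or 0.321. Among the 98 genes called higher in the reticulum, library 3 was the lowest of the reticulum libraries for 75 of the 98 genes (7687 of all 14765 genes tested). Library 2 was the highest for 61 of them and library 1 for 30. The part of this spread in the number of calls was not tested.

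No gene met the rule for genes to name without a block. By the same criteria in the fit with the block (a mean of at least 5 CPM in the higher chamber, no overlap of CPM and the largest fold change), 90 genes qualified in the reticulum and 11 in the rumen. The first 2 in each direction are given by identifier, a choice made after their values were seen.

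*ENSOARG00000003044* had 147, 545 and 17.4 CPM in reticulum libraries 1 to 3 of d10. In the rumen it had 0, 0.379 and 0.0589 CPM, which is 8 counts over the 3 libraries. The chambers did not overlap, although the reticulum libraries differed widely among themselves. The mean was 236 ± 275 CPM (SD, n = 3) in the reticulum and 0.146 ± 0.204 CPM in the rumen. The log2 fold change of rumen over reticulum was -10.66 (SE 0.464) with the block (edgeR, adjusted p = 0.00369), and -10.58 (SE 1.59) without it (adjusted p = 0.0583). In the d5 libraries, which the d10 fits do not use, this gene had 11.2, 84.3 and 29.1 CPM in the reticulum and 0.455, 0.537 and 0 CPM in the rumen (edgeR without a block, adjusted p = 0.0226). The omasum at d10 had 103, 116 and 118 CPM, within the range of the reticulum, and the abomasum 0.332 to 2.45 CPM.

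*ENSOARG00000016068* had 0 counts in all 3 rumen libraries of d10. In the reticulum it had 17.3, 19.2 and 1.5 CPM, so that library 3 was again far below the other reticulum libraries and still above the rumen. The reticulum mean of 12.7 ± 9.73 CPM (SD, n = 3) was at least 68.5-fold higher than the rumen, taken at a floor of 3 counts per library. The adjusted p of edgeR was 0.0248 with the block and 0.0764 without it. At d5 it had 1.27, 3.5 and 1.34 CPM in the reticulum, against 0.13, 0 and 0 CPM in the rumen (adjusted p = 0.0377 without a block). It reached 4.4 to 9.5 CPM in the omasum of d10 and 0 counts in all 3 abomasum libraries of that age.

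*ENSOARG00000020784* was higher in the rumen, with 176, 82.8 and 191 CPM in rumen libraries 1 to 3 and 21.5, 8.86 and 33.8 CPM in the reticulum libraries of the same number. Library 2 was the lowest in both chambers and library 3 the highest. The rumen was 8.16-, 9.34- and 5.64-fold higher within the 3 numbered pairs. The means were 150.0 ± 58.4 CPM in the rumen and 21.4 ± 12.5 CPM in the reticulum (SD, n = 3), with a log2 fold change of 2.71 (SE 0.232) with the block (edgeR, adjusted p = 0.018). Without the block it was 2.56 (SE 0.557, adjusted p = 0.092). At d5 both chambers were lower, with 19.4, 15 and 34.3 CPM in the rumen and 1.2, 1.68 and 3.25 CPM in the reticulum (adjusted p = 0.0226 without a block). The omasum of d10 had 0.757 to 10.5 CPM and the abomasum 2.29 to 3.52 CPM.

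*ENSOARG00000005124* had 18.9, 27.9 and 15.7 CPM in the rumen and 3.33, 6.37 and 2.14 CPM in the reticulum at d10. Here library 2 was the highest and library 3 the lowest in both chambers, the reverse of the gene before. The rumen was 5.68-, 4.38- and 7.31-fold higher within the pairs. The log2 fold change was 2.29 (SE 0.234) with the block (edgeR, adjusted p = 0.0205) and 2.22 (SE 0.403) without it (adjusted p = 0.0723). The omasum of d10 had 4.99 to 6.8 CPM. The abomasum of d10 had 20.5, 2.19 and 4.39 CPM, so that its library 1 was within the range of the rumen. The d5 values were 16.2, 6.36 and 11.9 CPM in the rumen and 1.91, 1.31 and 1.84 CPM in the reticulum (adjusted p = 0.0268 without a block). All 4 genes were thus called at d5 in other libraries and in the direction seen at d10. The d10 calls of these genes without a block varied with the fit. All 4 passed in DESeq2 (adjusted p = 1.65e-08 to 7.74e-05). They also passed in the edgeR fit of the 12 rumen and reticulum libraries (adjusted p = 0.00785 to 0.0243). None of the 4 passed in limma-voom (adjusted p = 0.151 to 0.214), or in edgeR with DESeq2 size factors, robust estimation or a test against a log2 change of 1. Without reticulum library 3 all 4 passed at d10 with no block (edgeR, adjusted p = 0.0015 for *ENSOARG00000003044*, 0.00136 for *ENSOARG00000016068*, 0.0201 for *ENSOARG00000020784* and 0.0324 for *ENSOARG00000005124*). Leaving out any of the other 5 libraries, none of the 4 passed (adjusted p = 0.101 to 0.304). In the fit of all 24 libraries *ENSOARG00000003044* and *ENSOARG00000016068* passed, while *ENSOARG00000020784* (adjusted p = 0.109) and *ENSOARG00000005124* (adjusted p = 0.113) did not. With no filter on low counts 3 of the 4 passed, and *ENSOARG00000020784* did not (adjusted p = 0.0546).

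Among the 90 and 11 genes that met the criteria, the 8 next by fold change on each side are given as ranges. The 8 higher in the reticulum had means of 6.57 to 352 CPM in the reticulum and of 0 to 0.187 CPM in the rumen. The 8 higher in the rumen had means of 44.8 to 908 CPM in the rumen and of 15.4 to 286 CPM in the reticulum, so that they were well expressed in both chambers. The adjusted p of edgeR with the block was 0.0136 to 0.0389 for the first 8 and 0.0212 to 0.0406 for the others. At d5, 5 of the first 8 and 1 of the others were called without a block.

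**Figure D2:**
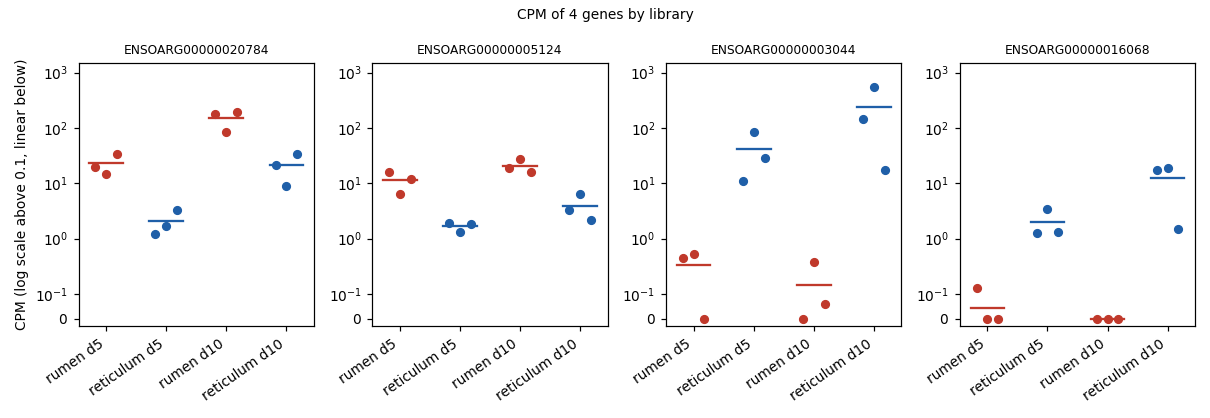
CPM of 4 genes (vertical axis, log scale above 0.1 and linear below) in each rumen (red) and reticulum (blue) library of d5 and d10, with libraries 1 to 3 from left to right in each group and a line at the mean. The first 2 genes are higher in the rumen and the last 2 in the reticulum at both ages; the second of these has 0 counts in all rumen libraries of d10.

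The 98 genes called higher in the reticulum included very large differences. Of these, 45 had a log2 fold change of more than 5 towards the reticulum, 66 of more than 3 and all 98 of more than 1. The 15 genes called higher in the rumen had log2 fold changes of 1.18 to 2.71, and 3 of them were above 2. A median fold of 24.7 in mean CPM was found over the 98 genes, with the 2 genes at 0 in the rumen placed at the floor of 3 counts. Over all 14765 genes tested, the median log2 fold change was 0.00333 with the block. The same asymmetry was seen in the fitted values of all tested genes without a block, where 485 genes were more than 4-fold (log2 of 2) higher in the reticulum and 28 in the rumen. None of these passed the threshold in that fit, in which 0 genes were called.

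By mean level over the 6 libraries, the 98 genes were 22 of 2724 genes tested at 1 to 5 CPM, 33 of 3902 at 5 to 20 CPM, 29 of 5654 at 20 to 100 CPM and 14 of 1914 at 100 CPM or more. Of the 571 genes tested below 1 CPM, 0 were called in either direction. Of the 15 genes higher in the rumen, 11 had a mean of 20 to 100 CPM, 2 were below that range and 2 above it. The 100 most abundant genes of each chamber had 84 genes in common. Of the 116 genes in either list, 106 differed by at most 2-fold in the fit without a block, which held for 89.1% of all genes tested, so that abundant genes were near the background. A further 9 were more than 2-fold higher in the reticulum and 1 in the rumen. With the block 4 of the 116 genes were called, against 0.765% of all genes.

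The median level of the 98 genes was 1.15, 1.46 and 0.796 CPM in rumen libraries 1 to 3 and 28.9, 33.0 and 13.8 CPM in reticulum libraries 1 to 3. They took 2.44%, 2.54% and 0.608% of all counts in the reticulum libraries and 0.11% to 0.144% in the rumen libraries. For 97 of the 98 genes every reticulum library was above every rumen library on the TMM scale. The genes were called in these same libraries, so that this count describes the choice and is no test. Over all tested genes, 1610 (10.9%) had the 3 reticulum libraries above the 3 rumen libraries and 2079 (14.1%) had the reverse. Without TMM scaling these were 877 and 3760 genes, as the median log2 ratio of all genes was then shifted by 0.168 towards the rumen. Without reticulum library 3 they were 2983 and 2979 on the TMM scale. Leaving out any library can only keep or raise such counts, and no other library was left out here for comparison.

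The 15 genes higher in the rumen had a median of 132, 46.3 and 137 CPM in rumen libraries 1 to 3 and of 33.5, 13.6 and 34.3 CPM in the reticulum libraries. Library 2 was thus the lowest in both chambers, which held for 13 of the 15 genes in the rumen and 12 in the reticulum. The 3 numbers had the same order in both chambers for 13 of these 15 genes, against 36 of the 98 genes higher in the reticulum and 3672 (24.9%) of all genes tested. The block favours genes whose pairs move together, so that the first 2 counts are a description of what it called. On the TMM scale, rumen and reticulum libraries did not overlap for 8 of the 15 genes.

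**Figure D3:**
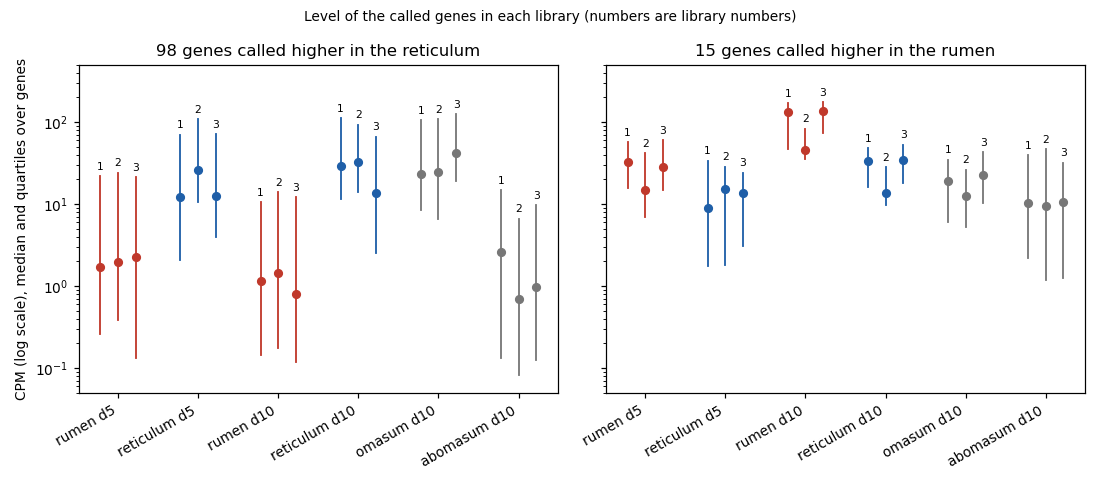
Level of the 98 genes called higher in the reticulum (left) and the 15 called higher in the rumen (right) with the block at d10, as the median CPM over genes (points) with quartiles (bars) on a log scale, in each library of rumen, reticulum (d5 and d10), omasum and abomasum (d10). The numbers above the bars are the library numbers; the 98 genes have medians of 0.696 to 2.59 CPM in the rumen and the abomasum of d10 and of 13.8 to 42.1 CPM in the reticulum and omasum of d10.

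Genes at the floor in one chamber were nearly all on 1 side. At d10, 21 genes had at most 3 counts in each rumen library and at least 1 CPM in each reticulum library, and 1 gene had the reverse. That 1 gene was near both limits, with 15, 20 and 18 counts in the rumen libraries and 1, 0 and 3 in the reticulum libraries. The 21 genes had medians of 7.7, 12.4 and 2.0 CPM in reticulum libraries 1 to 3, and their means were at least 10.6- to 248-fold higher than the rumen floor. Of the 21 genes, 16 were called with the block, against 0.765% of all genes tested. The rule and the calls use the same d10 libraries, so that this count is no separate support. Without reticulum library 3, 76 genes met the rule and 3 met the reverse, although a rule over fewer libraries is easier to meet. At d5, 7 genes met the rule and 0 the reverse, and of the 21 genes of d10, 18 had every d5 reticulum library above every d5 rumen library, against 11.2% of all genes tested at d10.

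The d5 libraries come from other samples and allow the d10 difference to be read again. Between rumen and reticulum at d5, 131 of 14370 genes (0.912%) were called without a block, 34 higher in the rumen and 97 higher in the reticulum, and 2431 genes (16.9%) had an unadjusted p under 0.05. With the block 588 genes (4.09%) were called. The d5 count was 4, 25 and 8 without rumen library 1, 2 or 3 of d5, and 199, 746 and 34 without reticulum library 1, 2 or 3. It is thus no steadier than the d10 count. Of the 113 genes called with the block at d10, 44 were among the 131 of d5 (38.9% of the first list and 33.6% of the second).

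The genes called higher in the reticulum at d10 mostly kept their side at d5. Of the 98 genes, 88 were tested at d5, and 86 of these were higher in the reticulum. A gene near 0 in the d5 rumen passes the low-count filter only through its d5 reticulum values, which fixes its direction in advance. Of the 98 genes, 22, 15 and 29 had at most 3 counts in d5 rumen libraries 1 to 3. The count of 86 is thus in part set by the filter. At d5, 40 of the 88 were called without a block and 73 with it. The median log2 fold change of these 88 genes was -3.16 at d5 and -4.16 at d10, both without a block. They were chosen by their calls at d10, which raises the d10 size, so that the d5 value is the one to read. All 14 genes higher in the rumen at d10 that were tested at d5 were higher in the rumen there too, with a median log2 fold change of 1.14, and 4 were called without a block. Of all 14138 genes tested at both ages, 75.7% had the same direction.

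Read the other way, the genes called at d5 without a block were followed to d10. All 93 of the genes higher in the reticulum at d5 that were tested at d10 were again higher in the reticulum. Of all genes tested at both ages, 75.7% kept their direction. For 77 of the 93 the chambers did not overlap on the TMM scale, against 10.9% of all genes tested. A gene near the floor in the d10 rumen passes the low-count filter only through its d10 reticulum values, which fixes its direction in advance. Of the 93 genes, 19, 15 and 15 had at most 3 counts in d10 rumen libraries 1 to 3, and 9 in all 3. The counts of 93 and 77 are thus in part set by the filter. The 93 genes had a median log2 fold change of -2.79 at d5 and -2.76 at d10. Of the 34 genes higher in the rumen at d5, 28 (82.4%) were higher in the rumen at d10, near the 75.7% of all genes. No overlap was seen for 10 of the 34, against 14.1% of all genes tested. The 34 genes had a median log2 fold change of 1.62 at d5 and 0.57 at d10. A list chosen by its calls at d5 has its d5 values raised by that choice, so that the d10 values are the ones to read.

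**Figure D4:**
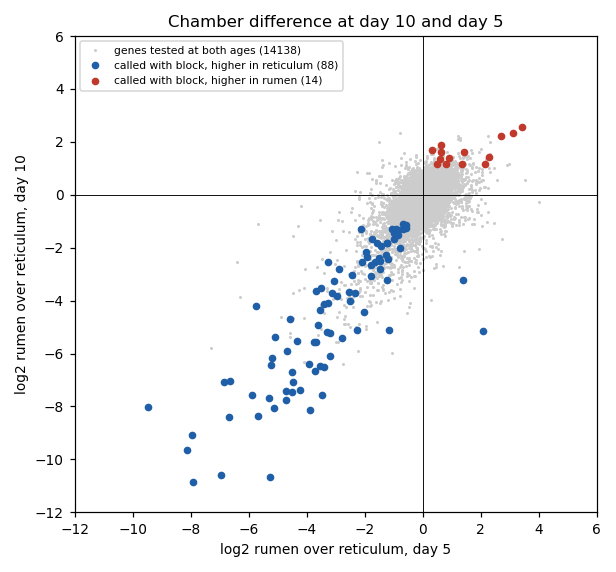
Log2 fold change of rumen over reticulum at d5 (horizontal axis) and d10 (vertical axis), both without a block, for the 14138 genes tested at both ages (grey). The genes called with the block at d10 are in blue (88 higher in the reticulum) and red (14 higher in the rumen); 86 of the 88 and all 14 lie on the same side of 0 at both ages.

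Whether the chamber difference changed between d5 and d10 was tested directly in the 12 rumen and reticulum libraries. No gene passed (edgeR interaction test, 0 of 15281 genes or 0%), with 502 genes at an unadjusted p under 0.05 and a lowest adjusted p of 0.468. limma-voom gave 0 genes and DESeq2 gave 8. Without reticulum library 3 of d10 the edgeR count was 7. A gene called at 1 age and not at the other is therefore not shown to differ between the ages.

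The other chambers at d10 placed the genes called higher in the reticulum with the omasum. The 98 genes had medians of 23.6, 24.9 and 42.1 CPM in the 3 omasum libraries. Every omasum library was above every rumen library for 94 of them (95.9%), against 17.1% of all genes tested. In the abomasum their medians were 2.59, 0.696 and 0.986 CPM, near those of the rumen, and every abomasum library was above every rumen library for 22 genes (22.4%, against 9.63% of all genes). The sum over the 98 genes was higher in the abomasum than the medians show, at 0.453% to 0.604% of all counts, and 8 of the genes had a higher mean in the abomasum than in the reticulum.

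Of the 21 genes at the floor in the rumen, 20 had at least 1 CPM in each omasum library of d10 and 2 in each abomasum library. Most genes reach that level: the lower quartile of all genes tested was 5.94 to 7.18 CPM in these omasum libraries. In the abomasum libraries of d10 it was 2.06 to 3.45 CPM. By this measure the count of 20 is not set apart from genes in general, while the count of 2 in the abomasum is low. The 21 genes were chosen by their rumen and reticulum values, so that all genes tested are only a rough background for them. For the 15 genes higher in the rumen, every omasum library was below every rumen library in 13 (86.7%, against 25.6% of all genes), with medians of 12.6 to 22.6 CPM. Their medians in the abomasum were 9.48 to 10.7 CPM, and 10 of the 15 were below the rumen in every library (66.7%, against 60.9% of all genes). The calls used the rumen libraries, which are on one side of all these readings, so that they describe levels and are no test of the omasum or abomasum.

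Genes typical of the abomasum in these data were near 0 in the reticulum as well. For this, 27 genes were taken that had at least 100 CPM in every abomasum library of both ages and at most 0.01 of the lowest of these in every rumen library, so that the rumen values are part of the choice. In reticulum library 3 of d10 the set summed to 0.0255% of its abomasum level, in the other reticulum libraries to 0.0173% and 0.021%, and in the rumen to 0.00573% to 0.0167%.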

How the data were processed

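Epithelium of rumen and reticulum at d10 (3 libraries each) was compared, with the d5 libraries and the omasum and abomasum of d10 read beside it. The authors deposited raw counts per gene for 24 libraries in a single table. CASAVA 1.8 and TopHat2 2.0.13 are listed in the submitters' processing notes. How reads were assigned to genes (program, build, gene models, strand, filtering) is not given in the sources used here, and reads of overlapping or near-identical genes may be split. Since 0 identifiers could be found in the RefSeq table of sheep genes, the 14 gene lists planned by symbol were not run and no sequence is shown. Members and lists were chosen with earlier results of these data known.

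CPM is the count over the library total. Groups came from the labels. Replicates of a group differed by more than sampling noise (chi-square per degree of freedom 20.2 to 130.0); nothing in the labels says that they are separate lambs, so p-values measure the spread between these samples. Differences were tested with edgeR 4.0.16 (TMM, filterByExpr, quasi-likelihood, two-sided) under R 4.3.3. Genes were called at a Benjamini-Hochberg adjusted p under 0.05. The SE is the log2 fold change over the square root of F. The study's methods describe a rank test over ages and none between chambers, and a count test was used here. At d10 the deviations of same-numbered rumen and reticulum libraries from their group means of log2(CPM + 1) correlated across genes at 0.395, 0.4 and 0.155, and at d5 at 0.321, 0.105 and 0.345, all over 0.1. By this limit, and not from the labels, the numbers were treated as pairs.

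Alternatives were the block, DESeq2 size factors, DESeq2 1.42.0, limma-voom (limma 3.58.1), other filters, robust estimation, a minimum fold change, larger fits and leaving out each library. The same alternatives within the block were added after seeing the data. The fits were tested on simulated data, where the share of false calls in the fit with the block was well above its nominal rate. The calls made with the block may therefore hold more false ones than the threshold implies. Genes to name had to be called, have a mean of at least 5 CPM in the higher chamber and show no overlap; the 2 with the largest change in each direction are given by identifier.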

Additional observations from a re-analysis of the deposited data

How the results depend on the processing

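With 3 libraries a side the calls at d10 depended on the fit, and the cause was not tested unless stated. Without a block, 0 genes were called by edgeR with DESeq2 size factors, at least 10 counts, robust estimation or a test against a log2 change of 1, and by limma-voom. The count was 113 with the replicate block (15 higher in the rumen, 98 in the reticulum), 1136 in DESeq2 (321 and 815), 217 without a filter (16 and 201), 582 in the fit of the 12 rumen and reticulum libraries (106 and 476) and 436 in the fit of all 24 (36 and 400). Leaving out 1 library gave 0 to 1162 genes (0 to 118 and 0 to 1044), the highest without reticulum library 3. With the block, the genes higher in the rumen and in the reticulum were 344 and 801 in DESeq2, 39 and 261 in limma-voom, 106 and 413 without a filter, 2 and 51 when tested against a log2 change of 1, and 196 and 496 in the fit of 12 libraries. With at least 10 counts in every library they were 0 and 0 (2888 genes at an unadjusted p under 0.05, lowest adjusted p 0.0614). That filter keeps 47 of the 98 genes and all 15. Leaving out 1 library gave 2 to 695 and 36 to 1627. At d5 the 131 genes became 588 with the block, 778 in DESeq2, 365 without a filter, 9 against a log2 change of 1 and 4 to 746 with 1 library left out. The change with age stayed at 0 genes except in DESeq2 (8) and with 1 library left out (0 to 7). The 4 genes named kept their direction in the fit with the block and in the alternatives without a block in which they could be tested; they were not followed through the alternatives within the block. The block changed no other call than those given.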
